A study of Caenorhabditis elegans with 2 samples.

Results

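Of the 12784 peaks called on the pooled reads of a chromatin immunoprecipitation sequencing (ChIP-seq) experiment for UNC-86 in late Caenorhabditis elegans embryos, 760 had their summit inside the exons of a protein-coding gene and away from any gene start. They were 5.94% of the list (95% Wilson interval 5.55 to 6.37). A peak was taken when its summit, the base of highest signal, lay in a coding sequence or a 3' UTR, more than 1 kb from every protein-coding transcript start and more than 300 bp from the midpoint of every tRNA, snoRNA, snRNA and miRNA gene. The choice used position only, and no measured value entered it. These peaks are called exonic peaks here, and the other 12024 pooled peaks are the ones they were set against. Of the other peaks, 2877 lay in introns, 2744 between genes, 5875 within 1 kb of a transcript start and 513 near a small RNA gene, and 15 fitted none of these positions.

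Both libraries came from whole hermaphrodites of strain OP476, genotype unc-119(tm4063) III; wgIs476, collected as late embryos at 3.5 hours after eggs were bleached for synchronization. The wgIs476 transgene makes UNC-86 fused at its C-terminus to GFP and FLAG, so that an anti-GFP antibody could pull down the sonicated chromatin it was bound to. The 2 libraries are biological replicates 1 and 2 of this single group, and no mutant, untagged or other-stage group was compared. Since whole animals were used, binding in a few neurons and weak binding in many cells cannot be told apart. Per the file headers, every call was made against a control alignment.

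UNC-86 is a POU homeodomain protein of the Brn-3 class, a DNA-binding factor that sets the identity of several neuron types in the worm. POU proteins contact DNA with a POU-specific domain and a homeodomain, whose preferred core sequences resemble ATGCAT and TAATTA. In a compact genome such as that of C. elegans most transcription factor peaks are found near gene starts. Coding exons carry the protein sequence, and 3' UTRs carry sites for RNA-binding proteins and miRNAs.

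The stretches below let some of the exonic peaks, strong and weaker ones, be seen as DNA. Each is 30 bases of the ce11 build (RefSeq sequence of WBcel235), printed 5′ to 3′ on the strand of the host gene. Capitals mark the match nearest the summit, within 100 bp of it on either side, to any of the motifs searched other than GATC and GAGAGAGA. A stretch all in lower case is centred on the summit and had no such match within 100 bp. The first lines are from rga-9, vab-1, zig-11, unc-34 and fem-3, which were among the 12 strongest exonic peaks found in both replicates. Those of vab-3, egl-13 and elt-7 are at transcription factor genes with a peak in both replicates, of pooled signal 39.1, 34 and 30.5. The nuclear hormone receptor genes nhr-40, nhr-65 and nhr-119 also had a peak in both replicates. Those peaks had no such match within 100 bp and are not printed, so the lines shown are not typical of transcription factor genes. The line of grdn-1 shows a tRNA-like B box in a 3' UTR.
rga-9: agcctttttgccTTATCAaattcgcgataa
vab-1: tccagaagcaATTACCCATcgaaagttcac
zig-11: taatcggagcattgttgcctcgattttcag
unc-34: taatattttttatatatttcccattatcct
fem-3: aaataaaggtATAGATAATatcgattaagc
vab-3: aactcaattaATTTTTAATagaatcaatgc
egl-13: ttcctttcctATTCATAATaggcctttttt
elt-7: tttccagcatATTACGTATccctctacatc
grdn-1: gaagaccgggGTTCGAGTCcccgcggtgga

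The rga-9 stretch is chrII:15274076-15274105 on the plus strand, and its capitals are the GATA motif TGATAA read on the other strand, 47 bp from the summit. The vab-1 stretch is chrII:4589837-4589866 on the plus strand, in the last coding exon. Its capitals are ATNNNTAAT on the other strand, a spaced form of the class IV POU site, and lie 4 bp from the summit. The zig-11 stretch is chrV:1875748-1875777 on the minus strand and the unc-34 stretch chrV:996567-996596 on the plus strand. The fem-3 stretch is chrIV:9107587-9107616 on the plus strand and holds the spaced POU form 22 bp from the summit. The same form stands in capitals in vab-3 (chrX:10518896-10518925, plus strand, 43 bp from the summit), in egl-13 (chrX:5673832-5673861, plus strand, 62 bp) and, read on the other strand, in elt-7 (chrV:4772911-4772940, plus strand, 18 bp). The grdn-1 stretch is chrV:18612298-18612327 on the plus strand, and its capitals match GTTCGANTC, the core of the B box, 4 bp from the summit.

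Exonic peaks were weak. The authors gave each peak a signal value relative to the control, and across the 760 exonic peaks it ran from 25.6 to 61 with a median of 30 (quartiles 27.4 and 34). The other pooled peaks had a median of 31.9 (quartiles 28.2 and 38.8) and reached 838. By position the medians were 30.8 in introns, 31.1 between genes, 32.6 within 1 kb of a start and 54.3 near small RNA genes. The highest exonic peak, in rga-9, ranked 943 in the pooled list. These signals are the authors' own and their scale was set separately in each call. Single peaks are therefore compared between replicates by rank. Replicate signals printed without a rank only give the value in each list.

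**Figure D1:**
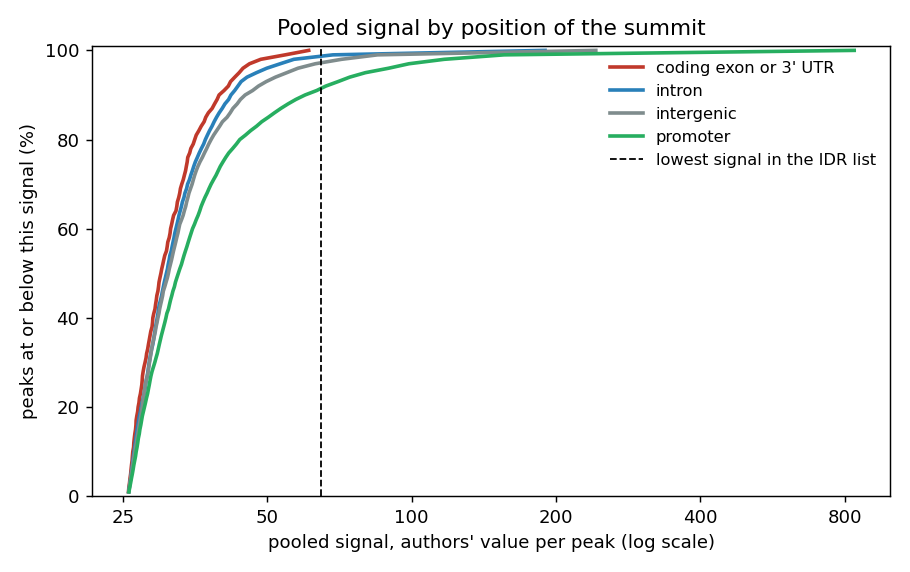
Cumulative share of pooled peaks (vertical axis, percent) at or below a given signal (horizontal axis, log scale) for peaks in coding exons and 3' UTRs, in introns, between genes and within 1 kb of a transcript start (promoter). The exonic curve ends at 61, left of the dashed line at 64.7, the lowest signal in the IDR list, while the other curves run on to the right.

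The plot of signal by position shows the exonic curve to the left of the others over most of its length. The authors' −log10 q values gave the same order. They largely rose with the signal of the same peak, so they are not a separate measure. Their median was 0.0502 among exonic peaks and 0.0774 among the other peaks. A −log10 q above 1.3, which corresponds to a q below 0.05, was reached by 3 exonic peaks (0.395%, interval 0.134 to 1.15) and by 1094 other peaks (9.10%, 8.60 to 9.63). The pooled list holds both peaks and background regions, and most exonic members of it were far from that level.

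None of the exonic peaks was in the list of 816 peaks that passed the authors' irreproducible discovery rate (IDR) step, against 816 of 12024 other peaks (6.79%, interval 6.35 to 7.25). Across the whole pooled list 6.38% of peaks were in it. By position the share was 1.04% in introns, 2.70% between genes, 8.46% within 1 kb of a start and 41.7% near small RNA genes. The count of 0 allows a share of up to 0.395% by the limit of 3 counts, or 0.503% by the Wilson interval (Fisher's exact test, two-sided, Benjamini-Hochberg adjusted over 3 tests, p = 1.87e-22). The IDR list consisted of the 816 pooled peaks of highest signal, so its lower edge of 64.7 is a threshold on signal, and the result restates that no exonic peak reached it. Only 1 exonic summit, in the 3' UTR of sesn-1, was within 1 kb of an IDR summit (0.956 kb), and the median distance was 43.7 kb. Exonic summits that the distance limits kept out were stronger in part. Of 845 such summits within 1 kb of a start, 6 were in the IDR list, and of 43 near a small RNA gene, 8 were.

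Replicate support was counted next. A pooled peak was taken as found in a replicate when that replicate's own list had a summit within 100 bp. Replicate 1 held 395 of the 760 exonic peaks (52%, interval 48.4 to 55.5) and replicate 2 held 423 (55.7%, 52.1 to 59.2). Both held 150 (19.7%, 17.1 to 22.7), only replicate 1 held 245, only replicate 2 held 273 and neither held 92. Among the other pooled peaks 3675 were in both (30.6%, 29.7 to 31.4), and over the whole pooled list the share was 29.9%. The difference passed Fisher's exact test (two-sided, adjusted over 3 tests, p = 6.85e-11). The shares were 24.3% in introns, 25.4% between genes and 33.3% within 1 kb of a start. Fisher's test and the Wilson intervals cover counting over peaks only. Peaks are not independent replicates, and 45 exonic peaks had an interval that overlapped that of another exonic peak.

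The pooled list was divided by signal into 4 bins of equal size. In each bin the exonic share in both replicates was the lower one, and in none did the difference pass the test. In the lowest bin, 3.19% of 251 exonic peaks and 3.70% of 2945 other peaks were in both replicates (Fisher's exact test, adjusted over the 4 bins, p = 0.861). The second bin gave 10.8% of 222 exonic peaks and 12.6% of 2974 other peaks (exact p = 0.703). In the third, 27.5% of 189 exonic peaks (interval 21.6 to 34.3) and 32.5% of 3007 other peaks (30.8 to 34.2) were in both (exact p = 0.690). The highest bin gave 67.3% of 98 exonic peaks (57.6 to 75.8) and 71.5% of 3098 other peaks (69.9 to 73.1, exact p = 0.703). That bin reaches 838 among the other peaks and 61 among exonic ones. Of its 2156 other peaks with a signal up to 61, 62.5% were in both. Exonic peaks were unevenly spread over the bins, with 33% of them in the lowest and 12.9% in the highest. This split by signal was added after the data were seen. A p above 0.05 does not show that the shares are equal.

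**Figure D2:**
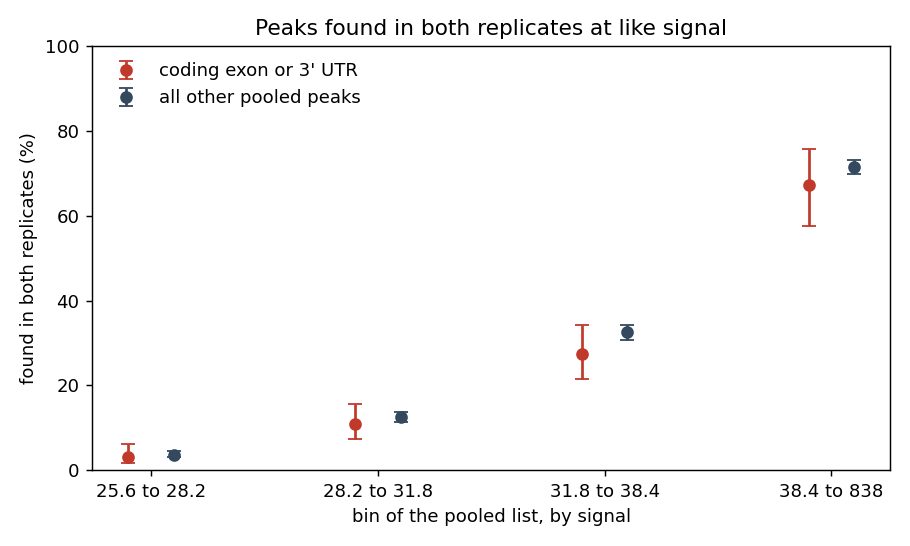
Share of pooled peaks found in both replicates (vertical axis, percent, with 95% Wilson intervals) for peaks in coding exons and 3' UTRs and for all other pooled peaks, in 4 equal bins of the pooled list by signal (horizontal axis, the authors' value). In each bin the exonic interval overlaps the point of the other peaks, and both shares climb with signal.

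Among the 816 strongest peaks of each replicate the exonic peaks were nearly absent. None was among the strongest of both replicates, against 497 other peaks (4.13%, interval 3.79 to 4.50), and over the whole pooled list the share was 3.89% (Fisher's exact test, two-sided, adjusted over 3 tests, p = 1.11e-13). By position the share was 0.556% in introns, 1.17% between genes, 4.78% within 1 kb of a start and 32.6% near small RNA genes. The pooled signal came from the same reads as the replicates, so this count is not separate from the upper signal of 61 among exonic peaks. Of the pooled exonic peaks, none was found among the 816 strongest of replicate 1 and 3 among those of replicate 2. These 3 were at vab-1, Y71G12B.31 and sesn-1. The rule was also run on each replicate's own list. It picked 1410 peaks in replicate 1 (8.06% of 17498) and 1408 in replicate 2 (7.62% of 18470). Of those in replicate 1, 10.6% had a summit of replicate 2 within 100 bp (interval 9.07 to 12.3), against 22.6% of its remaining peaks (22 to 23.3). Of those in replicate 2, 10.9% had a summit of replicate 1 nearby (9.41 to 12.7), against 21.3% of its remaining peaks (20.7 to 21.9). Exonic peaks thus took a larger share of either replicate's list than of the pooled one. Among the 816 strongest of each list, the rule picked 1 peak in replicate 1 and 4 in replicate 2. Their best ranks were 169 and 183, with signals of 73.1 and 67.3.

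The 150 exonic peaks found in both replicates had replicate signals that did not rank together, with a Spearman correlation of 0.07 and a Pearson correlation of log2 signal of 0.08. These are given as descriptions across peaks of the same 2 libraries. The same measures were 0.22 and 0.45 for 698 intronic peaks, 0.36 and 0.57 for 698 intergenic peaks and 0.60 and 0.77 for 1958 peaks within 1 kb of a start. Exonic peaks cover a narrow span of signal, which by itself lowers a correlation. With the other positions limited to signals up to 61, the Spearman correlation was 0.11 in introns, 0.15 between genes and 0.20 near starts.

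**Figure D3:**
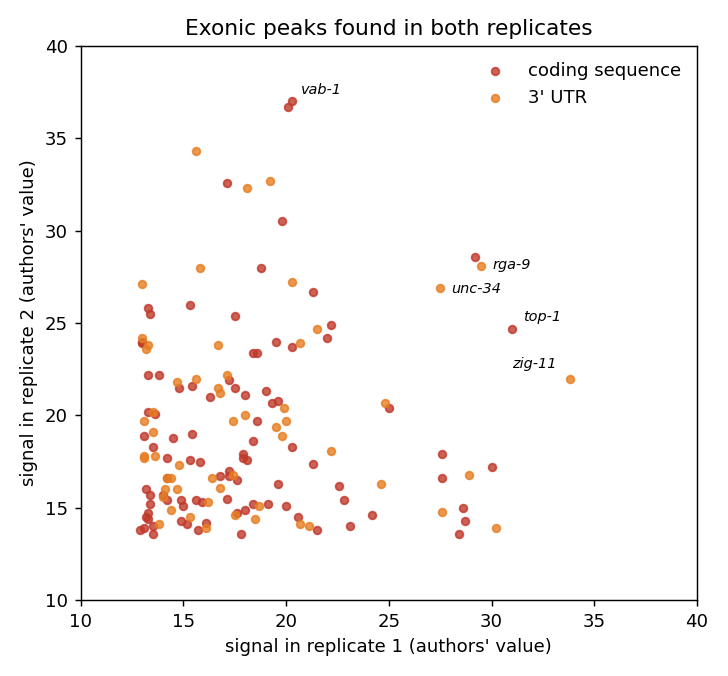
Signal in replicate 1 (horizontal axis) against signal in replicate 2 (vertical axis), both as the authors gave them, for the 150 exonic peaks found in both, coloured by coding sequence and 3' UTR. Most points lie below 25 on both axes, vab-1 is highest in replicate 2 (37) and zig-11 highest in replicate 1 (33.8), and there is no diagonal trend.

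Single genes varied in how closely the replicates ranked the same exon. In the 3' UTR of rga-9, signal was 29.5 in replicate 1 (rank 1255) and 28.1 in replicate 2 (rank 1507), with a pooled signal of 61. The summit is in exon 5 of 5, 301 bp from the transcript end, and is intronic in another transcript. In the last exon of vab-1, which encodes the worm's Eph receptor tyrosine kinase, signal was 20.3 in replicate 1 (rank 4181) and 37 in replicate 2 (rank 687), with a pooled signal of 60.4. Replicate 2 had this exon among its 816 strongest peaks and replicate 1 did not. In a coding exon of Y71G12B.31 the signals were 20.1 in replicate 1 (rank 4327) and 36.7 in replicate 2 (rank 700). That summit is also in an exon of a non-coding gene, and 40% of its interval is exonic. The order of ranks was the other way in zig-11, a member of a gene family with immunoglobulin domains, where the 3' UTR peak had 33.8 in replicate 1 (rank 916) and 22 in replicate 2 (rank 3839). In top-1, the topoisomerase I gene, a coding exon had 31 in replicate 1 (rank 1112) and 24.7 in replicate 2 (rank 2410). The top-1 summit is intronic in another transcript and 1185 bp from the nearest start.

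The other 7 of the 12 strongest peaks found in both replicates were in the genes below. The last coding exon of F32B5.7 had signals of 29.2 in replicate 1 (rank 1292) and 28.6 in replicate 2 (rank 1389). The 3' UTR of unc-34, which encodes the Enabled homologue that promotes actin filament growth in axons, had 27.5 (rank 1540) and 26.9 (rank 1735). A coding exon of tol-1, the Toll receptor gene, had 17.1 (rank 7711) and 32.6 (rank 950). The 3' UTR of sesn-1, the sestrin gene, had 15.6 (rank 10278) and 34.3 (rank 814). The 3' UTR of tom-1, the tomosyn gene that restrains synaptic vesicle priming, had 19.2 (rank 5129) and 32.7 (rank 942). In fem-3 the peak had 18.1 (rank 6407) and 32.3 (rank 967), and its summit was 28 bp from the transcript end. The fem-3 product directs male development, and the 3' UTR is a classical site of translational control. F25B5.5 completed the set of 12 with 19.8 (rank 4554) and 30.5 (rank 1139) in a coding exon. The signal scale of each replicate was set in its own call, and the medians of their full lists were 16.5 in replicate 1 and 17.3 in replicate 2. By rank within its own list, the peak stood higher in replicate 2 for 7 of the 12 and in replicate 1 for the other 5.

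Among the 100 strongest exonic peaks, those found in both replicates that replicate 1 and replicate 2 each favoured most by rank were at akap-1 and moma-1. In a coding exon of akap-1, the gene of an A-kinase anchoring protein, signal was 28.4 in replicate 1 (rank 1402) and 13.6 in replicate 2 (rank 18376 of 18470). At the 3' UTR of moma-1 it was 13 in replicate 1 (rank 17143 of 17498) and 27.1 in replicate 2 (rank 1704). Each was counted as found in both replicates although one of them held it near the very end of its list. The calls for single genes depend on the distance used: of the 62 peaks at named genes, 23 were in both replicates by summits within 100 bp and 38 by any overlap of intervals.

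Coding exons were sparsely covered and 3' UTRs were not. Coding sequence had 495 of the exonic summits and 3' UTRs had 265. Coding sequence that met the distance limits spans 12.7 Mb, which gives 38.9 summits per Mb, and such 3' UTR spans 1.96 Mb with 135 per Mb. Introns had 147 per Mb, intergenic sequence 113, the kilobase around starts 144 and the genome as a whole 127. Set against the genome share of the same bases, the share of pooled summits was 0.305 (interval 0.280 to 0.332) in coding sequence and 1.06 (0.943 to 1.20) in 3' UTRs. An even spread over the genome would have put 1623 summits in coding sequence and 249.5 in 3' UTRs. Thus 3' UTRs took 34.9% of the exonic summits (31.6 to 38.3) and were 13.3% of the bases eligible. Mappability and GC content differ between these kinds of sequence, and their part in the densities was not tested.

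**Figure D4:**
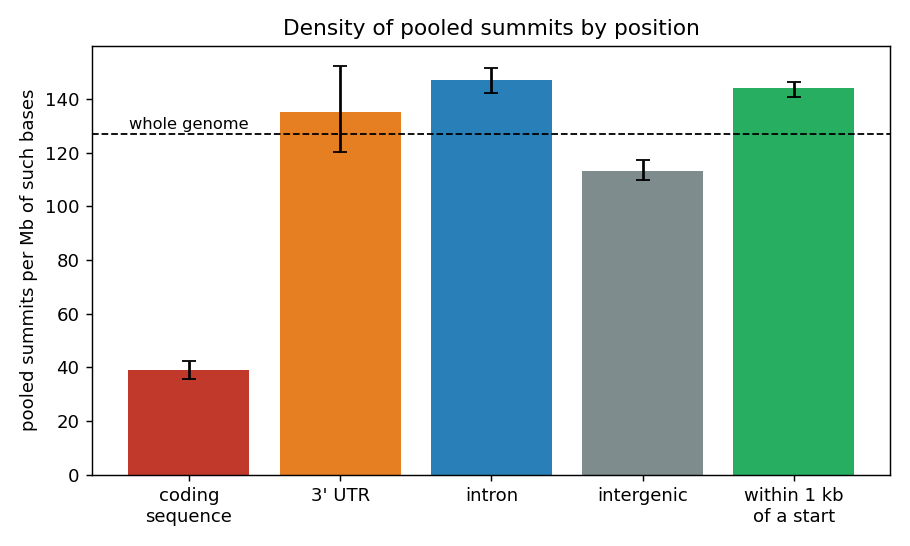
Pooled summits per Mb (vertical axis, bars from 0) in coding sequence and 3' UTRs that met the distance limits, in introns, between genes and within 1 kb of a start, with the 95% Wilson interval of each share of summits as the error bar. Coding sequence, at 38.9, is below every other bar, and the 3' UTR bar, at 135, is level with the dashed line of the whole genome at 127 within its interval.

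Signal and support overlapped between the kinds of exon. The median signal was 29.8 in coding sequence (quartiles 27.2 and 33.9) and 30.5 in 3' UTRs (27.6 and 34.4). Both replicates held 18.8% of coding peaks (interval 15.6 to 22.5) and 21.5% of 3' UTR peaks (17 to 26.8). Replicate 1 held 53.7% of coding and 48.7% of 3' UTR peaks, while replicate 2 held 53.3% of coding and 60% of 3' UTR peaks. These intervals overlap within replicate 1, at 49.3 to 58.1 and 42.7 to 54.7, and within replicate 2, at 48.9 to 57.7 and 54 to 65.7.

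Within coding sequence the summits lay near exon edges more often than the bases did. The median distance from a coding summit to the nearest base outside exons was 50 bp, against 72 bp for all eligible coding bases. It was at most 50 bp for 50.9% of coding summits (interval 46.5 to 55.3), against 37.8% of eligible coding bases. In 3' UTRs the order was the other way, with 11.7% of summits (8.36 to 16.1) and 17.4% of bases within 50 bp of an edge and medians of 250 and 165 bp. All 760 peaks had an interval of 440 bp with the summit in its middle. The interval was wholly exonic in 171 of them, and the median exonic share was 68.4%. Summits of 3' UTR peaks lay a median of 171 bp from a transcript end, against 118 bp for the eligible 3' UTR bases, and 83.8% (78.9 to 87.7) were within 500 bp of one, against 89.2% of bases.

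All 6 chromosomes held exonic peaks. Chromosome III had the most per Mb of eligible exon, 76.5, with 176 peaks, followed by I with 61, V with 51.1, II with 46.3 and IV with 41.9. Chromosome X had the fewest, 34.8 per Mb with 91 peaks, and also the lowest share in both replicates, 11% (interval 6.08 to 19.1). The share on V was 24.5% (18.2 to 32.1), on II 24% (16.8 to 33.1), on I 20.3% (14.7 to 27.3), on IV 19.4% (12.6 to 28.5) and on III 17.6% (12.7 to 23.9). The intervals of X and of every other chromosome overlap. As a share of each chromosome's pooled peaks, exonic peaks were 7.26% on III, 7.15% on V, 6.14% on I, 5.08% on II, 5.00% on X and 4.64% on IV.

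The 760 peaks fell in 699 host genes, 5.00% of the 13990 protein-coding genes that had any eligible base. Of the hosts, 639 had 1 peak, 50 had 2 and 10 had 3 or more, and 12 peaks were in exons of a pair of overlapping genes. Hosts had long exonic sequence, with a median of 1441 eligible bases, against 702 for all genes with any. The share of genes that hosted a peak was 1.57% with up to 0.5 kb of eligible sequence, 3.64% at 0.5 to 1 kb, 7.73% at 1 to 2 kb, 12.5% at 2 to 4 kb and 15.8% over 4 kb. Per kb of eligible sequence those classes had 0.0609, 0.0502, 0.0613, 0.0541 and 0.0303 peaks, so longer genes did not hold more per base. A host's own last exon had 352 of the peaks (46.3%), 96 of them in coding sequence. No share of eligible bases in last exons is given beside it, so this count shows no preference.

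The gene with the most exonic peaks was rimb-1, which encodes the RIM-binding protein of presynaptic active zones. Its 5 coding peaks had pooled signals of 41.7, 35.1, 34.3, 27.8 and 26.7. Of these, 4 were in replicate 1, at 17.1, 31.7, 26.2 and 15.7, none was in replicate 2 and the remaining one was in neither. The nearest summit of replicate 2 to the peak of 41.7 was 147 bp away, and the other 4 had none within 1 kb. Y92H12A.5 had 4 peaks of 38.7, 36.7, 28.9 and 27.5, and only the one of 36.7, in the 3' UTR, was in both replicates. Another 8 genes had 3 each, among which the highest signals were in grdn-1, nhr-119 and unc-34.

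In grdn-1, the girdin homologue, coding exon 11 had summits of 47.8 and 39.3 with overlapping intervals. The stronger was in replicate 1 (33.3) with no summit of replicate 2 within 100 bp, and the weaker was in both (22.8 and 15.4 in replicates 1 and 2). The third grdn-1 peak, in the 3' UTR, had a pooled signal of 30.9 and was in replicate 2 (26.6) only. Its summit is the B box stretch printed above. The nuclear hormone receptor gene nhr-119 had 3 summits within its 3' UTR at 45.7, 43.4 and 26.1, of which the one of 43.4 was in both replicates. In unc-34 the 3' UTR peak of 54.5 was in both, while a coding peak of 38.4 and a 3' UTR peak of 26.9 shared with the overlapping Y50D4C.5 were in replicate 1 only.

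Gene lists were counted against the 5.00% of all genes that were hosts and against 5.15 exonic peaks per 100 kb of eligible sequence over all genes. No list was tested, and the counts describe where exonic peaks fell. Of the axon guidance genes, 10 of 38 were hosts (26.3%, interval 15 to 42) with 15 peaks, or 11.1 per 100 kb. These were fmi-1, mom-5, plx-1, sax-3, sax-7, unc-34, unc-5, unc-53, unc-73 and vab-1. The list's median signal was 31.7, near the 30 of all exonic peaks, and 4 of its 15 peaks were in both replicates, with 19.7% as the share over all exonic peaks. The peak in exon 19 of fmi-1, the Flamingo cadherin gene, had 46.2 in the pooled list, 27.6 in replicate 1 and 16.6 in replicate 2.

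Transcription factor genes also held exonic peaks. Of the neuronal factors, 6 of 46 were hosts (13%, 6.12 to 25.7) with 14.8 peaks per 100 kb. The 3' UTR of vab-3, the Pax-6 gene, had 39.1 in the pooled list with 14.7 and 21.8 in replicates 1 and 2. The 3' UTR of egl-13, a SoxD gene, had 34 in the pooled list with 13.2 and 23.6. A coding exon of cog-1, the Nkx6 gene, had 34.6 and was in replicate 1 only (17.4). Among epithelial and early lineage factors 5 of 25 were hosts (20%, 8.86 to 39.1) with 22.3 per 100 kb, namely blmp-1, eya-1, grh-1, pal-1 and pha-4. None of those 5 peaks was in both replicates, a count too small to set against the 19.7% of all exonic peaks. In eya-1, the Eyes absent homologue, the signal was 36.6, and in blmp-1, the Blimp-1 homologue, it was 32.5, both in replicate 1 only. The peak in the caudal homologue pal-1, of 27.5, was in neither.

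Other neuronal lists had 1 or 2 hosts each. Of 12 touch receptor neuron genes, a cell type that UNC-86 specifies, 2 were hosts (16.7%, 4.70 to 44.8) with 11.9 peaks per 100 kb. Here mec-2, the stomatin-like channel partner, had a coding peak of 26.4 found in neither replicate, and mec-15 had one of 26.2 found in replicate 2 only (15). Outside that list, mec-8 had a 3' UTR peak of 35.2 found in both replicates, at 16.8 (rank 8159) and 16.1 (rank 11581). The mec-8 summit is intronic in another transcript. Of 27 pan-neuronal genes 2 were hosts (7.41%, 2.06 to 23.4), with 2.43 peaks per 100 kb. They were unc-31, the CAPS gene of dense-core vesicle release, at 26 and unc-51, the Atg1-type kinase gene, at 28.0. The neurotransmitter list had 1 host of 18 and 3.83 peaks per 100 kb. The host was tdc-1, the tyrosine decarboxylase gene, at 33.1 in the 3' UTR shared with gei-14 and found in neither replicate. The ceh homeobox genes had 2 of 52 and 4.74 peaks per 100 kb. These were ceh-91 at 32.7 and ceh-14, a LIM homeobox gene, at 26.1, each in replicate 2 only. Neuropeptide genes had 2 of 51 and 12.8 peaks per 100 kb, with nlp-18 at 36 and nlp-25 at 26.3, each in replicate 2 only. The unc-86 gene itself had no exonic peak. Its 2 pooled summits were within 1 kb of a start, at 72.8 in the IDR list and at 40 outside it.

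Genes of other tissues were hosts too. The nuclear hormone receptor family had 12 hosts of 241 (4.98%, 2.87 to 8.50) with 8.31 peaks per 100 kb. Of their 15 peaks 6 were in both replicates, where the share over all exonic peaks was 19.7%. They included nhr-40 at 41.6, with 17.2 and 21.9 in replicates 1 and 2, and nhr-65 at 37, with 14.5 and 18.8. Basement membrane, cuticle and attachment genes had 6 hosts of 38 (15.8%, 7.44 to 30.4), but 3.82 peaks per 100 kb. The strongest there were let-2, a type IV collagen gene, at 39.4, mup-4, whose product anchors the epidermis, at 35.6 and dpy-10, a cuticle collagen gene, at 34.9. None of those 3 was in both replicates. Muscle genes had 3 of 38, mlc-3 at 33.3, lev-11 at 30.1 and unc-89 at 29.0, and 2.25 peaks per 100 kb. Intestinal genes had 1 of 17 and 3.01 peaks per 100 kb. The host was elt-7, a GATA factor gene, at 30.5 with 13.5 and 20.2 in replicates 1 and 2. Chaperone genes had 1 of 21 and 5.11 peaks per 100 kb, at hsp-3, an endoplasmic reticulum BiP gene, with 29.6. Collagen genes with a col symbol, which leaves out those named for a body shape such as dpy-10, had 3 of 107 and 8.78 peaks per 100 kb. These were col-99 at 31.1, col-71 at 27.3 and col-47 at 26.2.

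No exonic peak fell in the 23 germline genes, the 22 translation factor genes or the 28 tubulin, actin and intermediate filament genes with eligible bases. Their upper limits by the Wilson interval were 14.3%, 14.9% and 12.1%, all above the 5.00% of all genes. Ribosomal protein genes had 6 members with eligible bases and histone genes 4, and neither had a peak.

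**Figure D5:**
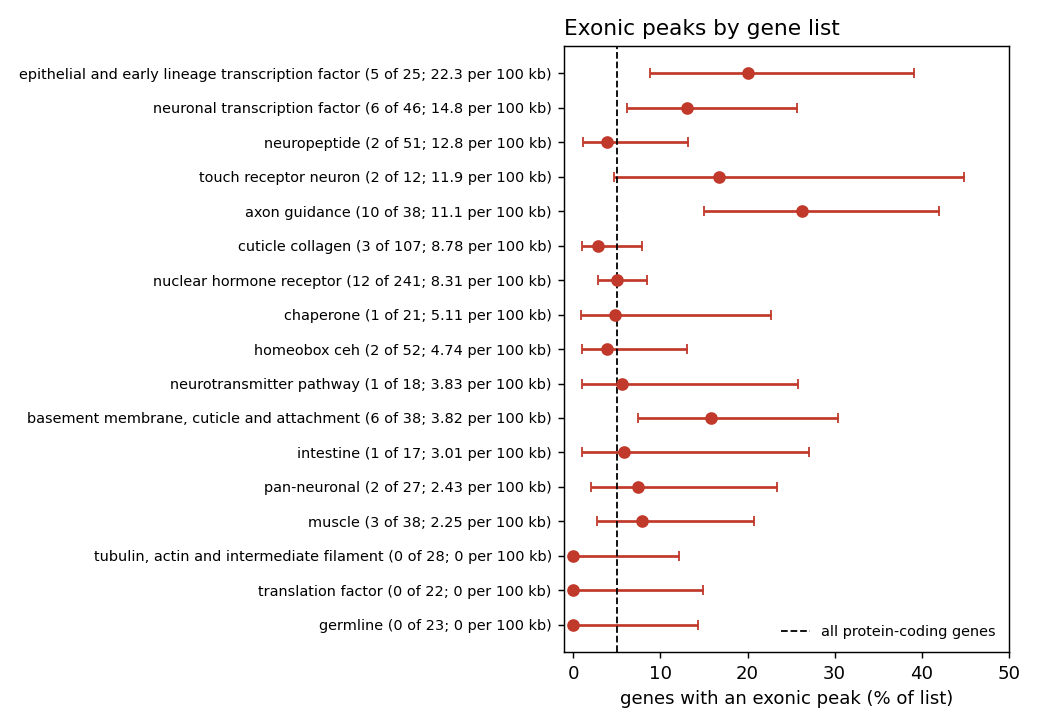
Share of genes with an exonic peak (horizontal axis, percent of the list's genes with eligible bases, points with 95% Wilson intervals) for 17 gene lists ordered by peaks per 100 kb, with hosts, genes and that density beside each name. Axon guidance lies farthest to the right at 26.3%, against the dashed line of all protein-coding genes at 5.00%, and the bottom 3 lists are at 0.

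POU and homeodomain motifs were not more frequent at exonic summits beyond the intervals, and the POU core was less frequent. Motifs were searched on both strands up to 100 bp to each side of a summit. The homeodomain core TAATTA was in 8.55% of exonic windows (interval 6.77 to 10.8) and 9.30% of other windows. The POU core ATGCAT was in 2.89% (1.92 to 4.34) and 4.82%, and the octamer ATGCAAAT in 1.97% (1.20 to 3.23) and 1.73%. Intronic windows held the POU core in 4.03%, within the exonic interval. Intergenic windows held it in 5.32% and windows within 1 kb of a start in 4.92%, both outside that interval. The spaced class IV form ATNNNTAAT, which can overlap TAATTA, was in 21.8% (19.1 to 24.9) and 19.8%, so the capitals shown for vab-1, fem-3 and others are letters that 1 window in 5 holds. By kind of exon that form was in 18% of coding and 29.1% of 3' UTR windows, below and above the 19.8% of other windows. No interval is given for the kinds. The GATA motif TGATAA was in 14.2% (11.9 to 16.9) and 13.5%, the E box CAGCTG in 4.74% (3.44 to 6.49) and 3.47%, and the repeat GAGAGAGA in 2.24% (1.40 to 3.55) and 3.33%. A match is a description of the letters and not a binding site.

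The control word GATC was chosen for no role in POU binding. It was in 43.8% of exonic windows (40.3 to 47.4) and 25.3% of other windows, with 51.1% in coding and 30.2% in 3' UTR windows. GC content differed in the same way between kinds of exon, with a median of 39.3% in coding and 32.3% in 3' UTR windows, and 35.8% in the other pooled windows. Eligible coding bases as a whole were 42.9% GC and eligible 3' UTR bases 30.5%. The windows of coding summits run into introns, so their GC is not that of coding bases alone.

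The B box core GTTCGANTC, added after the data were seen, marks the inner promoter of tRNA genes. It was in 2 exonic windows (0.263%, 0.0722 to 0.954), those of grdn-1 and nmy-1, and in 182 other windows (1.51%). Windows near small RNA genes, which the choice of exonic peaks leaves out, held it in 23.8%. Introns had 0.417% and intergenic windows 0.510%, both within the exonic interval. The 51 bp around the summit occurred elsewhere in the genome for 0 of 760 exonic peaks, which allows up to 0.395% by the limit of 3 counts, and for 193 other peaks (1.61%, 1.40 to 1.85).

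The distance limit of 1 kb divided peaks of the same kind. The exonic peaks least beyond it were in F18H3.4, 1003 bp from a start with a signal of 25.8, in Y59C2A.2, 1004 bp away with 27.4, and in col-47, 1005 bp away with 26.2. Just inside it and so not counted were exonic summits in unc-76, 1000 bp away with 26.1, in F07F6.7, 999 bp away with 29.3, and in cpd-1, 998 bp away with 25.9. None of these 6 was in the IDR list, and the 845 exonic summits within the limit as a whole had a median signal of 30.6 with 22.5% in both replicates (19.8 to 25.4).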

How the data were processed

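The deposited files were peak lists in the ce10 and ce11 builds, one per replicate, one of the pooled alignments and one past the IDR threshold, per the file headers. In each, the authors gave a signal value and a −log10 q value per peak, on a scale of each list's own. Replicates were compared by rank, by correlation of signal and by whether a peak was found. Replicate signals printed without a rank were not compared in size. Depth is unknown: read numbers, caller, aligner and IDR threshold were not given in the sources used here. Only ce11 lists were used, with the Ensembl release 115 annotation of WBcel235. Summits were classed base by base, and a peak counted as found in a replicate with a summit within 100 bp. Shares have 95% Wilson intervals, and Fisher's exact tests were two-sided and adjusted by Benjamini-Hochberg. The scripts were tested on simulated data. Named genes were the 12 strongest in both replicates, the 5 hosts with most peaks (ties by signal), up to 3 hosts per list by signal, 3 summits on each side of 1 kb, the largest rank gap in each direction among the 100 strongest, and unc-86. Other names (nmy-1, mec-8, hosts listed by name only) were chosen after their values were seen. Members, lists, motifs and tests were chosen with earlier results of these data known. Alternatives changed distances, gene sets, windows and lists. Tests and tables used SciPy 1.17.1, pandas 2.3.3 and numpy 2.4.6 in Python 3.11.15, and plots matplotlib 3.10.9.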

Additional observations from a re-analysis of the deposited data

How the results depend on the processing

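No paired analysis was possible because there was 1 group. With transcript starts over 2 kb away, 417 exonic peaks were left and their share of summits was 0.451 of the genome share. In the part of the pooled list with higher signal, 287 were left with a median signal of 35.6. Picked from the list of one replicate alone, without the other, exonic peaks numbered 1408 to 1410, with medians of 15.7 to 16.7 on those lists' own signal scales and coding shares of 69.9% to 71.9%. Within the 4 bins of signal the share in both replicates, 3.19%, 10.8%, 27.5% and 67.3%, no longer passed the test. The ratio for GATC was 1.92 within 50 bp of the summit and 1.73 within 100 bp. The share in both replicates was 12.9% within 50 bp, 28.9% within 200 bp and 37.6% by overlap of intervals, below the other peaks and past the test each time. With each replicate's list shortened to the length of the pooled list it was 10%, against 22.1% of the other peaks. It was lower than that of the other peaks, and past the test, in 12 of its 16 alternatives, the bins of signal being the other 4. In all 5 and all 8 of their alternatives, the counts in the IDR list and among the strongest peaks of both replicates stayed at 0. Alternatives that only removed exonic peaks or matched summits more closely could not have changed them. With transcript starts over 500 bp away, which adds peaks, 1055 exonic peaks still had 0 in each. Matching within 200 bp or by overlap of intervals also left 0 among the strongest peaks. The cause of these changes was not tested. The unknown depth limits what the weak signals can show.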
